A study of Mus musculus with 16 samples.

Results

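The collagen genes of the mouse were described in cells of KPC1199, a mouse pancreatic cancer line, that had been grown as orthotopic pancreatic tumours and sorted out of them before RNA sequencing. Members were the protein-coding genes of the deposited tables whose symbol has the form of a collagen chain (Col, a number, a, a number): 44 of 54532 genes. They fell into 11 fibrillar chains, 6 basement membrane collagen IV chains, 2 multiplexins of the basement membrane zone, 6 collagen VI chains, 9 FACIT chains (fibril-associated collagens with interrupted triple helices), 3 chains of the network-forming collagens VIII and X, collagen VII, 4 transmembrane chains and 2 others. The groups were sorted cells made to overexpress Ly6d, sorted Ly6d WT cells, sorted cells with high Ly6d and sorted cells with low Ly6d, with 2 libraries each. The series was set up to ask how Ly6d, a lipid-anchored surface protein, bears on the start and growth of pancreatic cancer. The promoter of the overexpression construct, whether the line was 1 clone, the host mice, and the markers or gates of the sort are not stated in the labels. The 8 tumour tissue samples of the series were not analysed here. Since nothing says that the 2 libraries of a group came from separate animals or sorts, the p-values measure the spread between these libraries, which may be technical.

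Collagens are triple helices of alpha chains, made in the endoplasmic reticulum with the help of prolyl and lysyl hydroxylases and the chaperone Hsp47, then trimmed and cross-linked outside the cell. Fibrillar collagens I, III and V form the tensile fibres of stroma, collagen IV forms the sheet of basement membranes, collagen VI forms beaded filaments around cells, and FACIT collagens decorate the fibrils. Pancreatic ductal adenocarcinoma is known for a dense collagenous stroma, most of it laid down by fibroblasts, while cancer cells themselves also make some collagen. In bulk RNA of sorted cells, fewer cells of a type and less RNA per cell cannot be told apart.

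Several collagen genes lie beside one another, and promoter windows of 250 bases before to 50 after the annotated start, from RefSeq on GRCm38.p6, were found for 35 of the 44 members. Col4a1 and Col4a2, the main chains of collagen IV, start from facing ends on chromosome 8, and their gene models overlap by 22 bases. The sources used here do not state the strand setting of the counting, so reads in that overlap cannot be assigned to a chain. The 2 windows are shown because they share 78 bases, printed in capitals and read on opposite strands (Col4a1 chr8:11312777-11313076, minus strand, and Col4a2 chr8:11312555-11312854, plus strand).
Col4a1: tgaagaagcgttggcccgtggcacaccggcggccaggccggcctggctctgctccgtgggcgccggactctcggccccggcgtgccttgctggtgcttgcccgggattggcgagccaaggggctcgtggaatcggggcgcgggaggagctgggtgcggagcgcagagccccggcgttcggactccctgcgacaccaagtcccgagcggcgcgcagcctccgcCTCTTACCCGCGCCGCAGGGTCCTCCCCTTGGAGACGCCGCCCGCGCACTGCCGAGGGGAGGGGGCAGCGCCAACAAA
Col4a2: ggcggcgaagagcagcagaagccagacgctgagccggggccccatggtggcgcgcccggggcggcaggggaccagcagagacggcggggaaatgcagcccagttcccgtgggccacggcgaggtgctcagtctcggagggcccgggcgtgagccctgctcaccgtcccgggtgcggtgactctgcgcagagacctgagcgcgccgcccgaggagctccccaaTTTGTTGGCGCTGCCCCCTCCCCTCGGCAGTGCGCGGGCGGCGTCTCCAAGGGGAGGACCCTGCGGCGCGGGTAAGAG
The pair Col4a4 and Col4a3 on chromosome 1 is arranged in the same way with a gap of 71 bases, and the pair Col4a6 and Col4a5 on the X chromosome with a gap of 1308 bases. On chromosome 9, Col6a6, Col6a5 and Col6a4 follow each other on the minus strand with gaps of 27917 and 28810 bases. Col6a2 and Col6a1 lie 85161 bases apart on chromosome 10, both on the minus strand.

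Of the collagens that passed a test described further down, Col12a1 and Col9a3 had no window. The next 4 windows belong to the others, and capitals mark matches on either strand to CCAAT (the CCAAT box) or GGGCGG (the GC box). No TATAA was found in them. They are Col1a2 (chr6:4505368-4505667, plus strand), Col27a1 (chr4:63215162-63215461, plus strand), Col6a5 (chr9:105960594-105960893, minus strand) and Col6a3 (chr1:90843922-90844221, minus strand).
Col1a2: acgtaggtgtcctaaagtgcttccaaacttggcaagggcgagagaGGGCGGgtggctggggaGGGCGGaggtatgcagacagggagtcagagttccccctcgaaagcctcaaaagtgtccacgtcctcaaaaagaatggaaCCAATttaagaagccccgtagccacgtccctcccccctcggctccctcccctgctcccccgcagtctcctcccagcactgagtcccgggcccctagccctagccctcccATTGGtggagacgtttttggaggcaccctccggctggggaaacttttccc
Col27a1: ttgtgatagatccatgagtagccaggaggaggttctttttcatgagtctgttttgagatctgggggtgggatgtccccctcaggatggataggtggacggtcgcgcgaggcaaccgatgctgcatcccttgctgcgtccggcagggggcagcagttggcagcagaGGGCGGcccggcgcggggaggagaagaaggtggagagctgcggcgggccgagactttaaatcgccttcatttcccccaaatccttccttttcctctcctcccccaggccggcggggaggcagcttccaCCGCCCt
Col6a5: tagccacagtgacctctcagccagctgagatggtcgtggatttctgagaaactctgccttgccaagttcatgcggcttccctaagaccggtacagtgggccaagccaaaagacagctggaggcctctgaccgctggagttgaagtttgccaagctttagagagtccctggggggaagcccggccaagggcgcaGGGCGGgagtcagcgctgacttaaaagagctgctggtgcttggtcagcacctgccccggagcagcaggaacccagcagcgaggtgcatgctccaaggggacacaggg
Col6a3: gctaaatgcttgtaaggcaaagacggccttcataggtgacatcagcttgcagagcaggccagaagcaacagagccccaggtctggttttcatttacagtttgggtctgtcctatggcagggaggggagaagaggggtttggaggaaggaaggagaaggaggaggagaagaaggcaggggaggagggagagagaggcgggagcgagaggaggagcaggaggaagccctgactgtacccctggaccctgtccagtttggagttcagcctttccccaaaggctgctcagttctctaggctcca
The RefSeq start used for Col1a2 lies 804 bases inside the deposited gene model, and that of Col27a1 lies 1408 bases inside. The Col1a2 window held 2 matches to each of the 2 motifs, the Col27a1 window 2 GC boxes and the Col6a5 window 1 GC box, while none of these letters occurred in the Col6a3 window. Over the 38 collagen windows, 23 (60.5%) held GGGCGG, against 35.7% of all 32851 windows in the table. CCAAT was in 13 collagen windows (34.2%), against 37.4% of all windows, and TATAA in 7 (18.4%), against 24.9%. These shares describe the letters in the windows and carry no test.

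The depth was 18290325 and 18001470 counts in overexpression cells, against 18108850 and 15449241 in WT cells. From the deposited TPM of the other comparison, 20509539 and 18362419 reads were recovered in Ly6d-high cells, against 15063975 and 19322028 in Ly6d-low cells. Ly6d itself stood at 3380 and 3423 CPM (counts scaled to the same library total) in overexpression cells, against 1260 and 1066 CPM in WT cells. It stood at 697 and 504 TPM in Ly6d-high cells, against 1.56 and 0.352 TPM in Ly6d-low cells, as the labels say. Epithelial markers were abundant in every library: Epcam, an epithelial adhesion molecule, was at 650 and 625 CPM in overexpression cells and 648 and 633 CPM in WT cells. It was at 1955 and 2011 TPM in Ly6d-high cells and 2434 and 2288 TPM in Ly6d-low cells. All 12 fibroblast markers also had reads in all 8 libraries, so RNA of these genes was present beside that of the epithelial genes.

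Collagen genes took 1.32% and 1.30% of all counts in overexpression cells, against 1.16% and 1.26% in WT cells. They took 0.273% and 0.316% of recovered reads in Ly6d-high cells, against 0.249% and 0.258% in Ly6d-low cells. Both times the libraries with more Ly6d had the higher share, and the groups did not overlap. Of all genes tested, 54.4% also lay wholly above in Ly6d-high cells by TPM, and 26.3% wholly above in overexpression cells by CPM. The collagen shares are taken over each library's total and carry no further scaling. The 2 tables were normalised separately, and the difference in share between them was not tested. Of the 44 collagens, 35 had enough counts to be tested between overexpression and WT cells, and 19 of these also passed the filter between Ly6d-high and Ly6d-low cells (1 TPM or more in at least 2 libraries). The other 9 were tested in neither comparison.

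**Figure D1:**
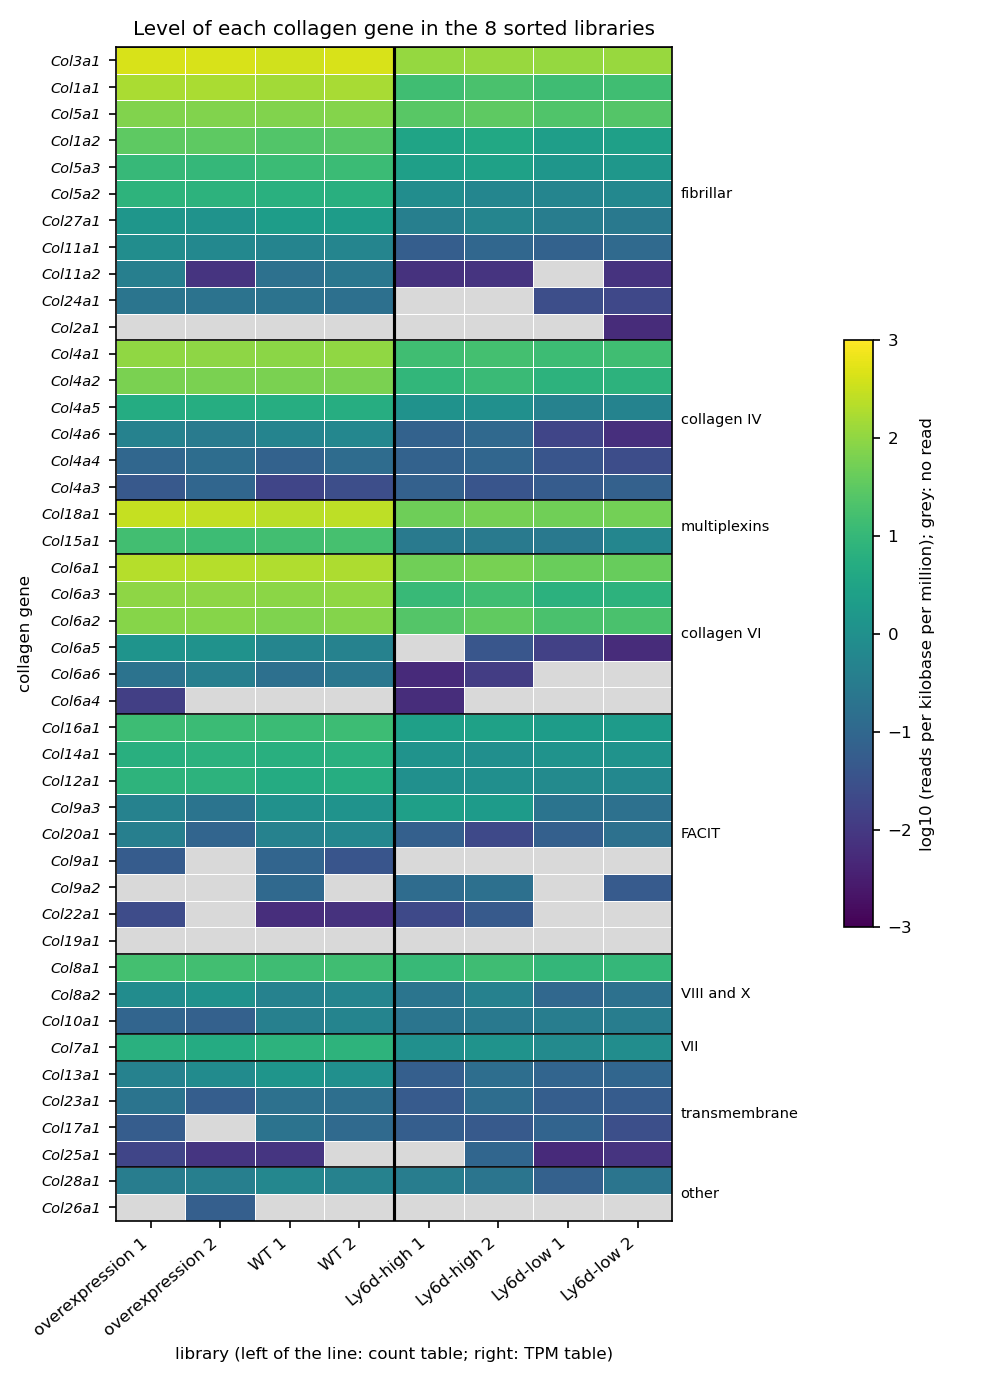
Level of all 44 collagens (rows, grouped by class) in the 8 libraries (columns), as the log10 of CPM divided by the gene length in kilobases, with grey for no read. Col3a1 is the top row of the fibrillar chains in each library, and Col19a1 is grey throughout.

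Col3a1, the chain of collagen III, had the highest level per gene length in each table. In the count table its level, as RPKM (CPM divided by the gene length in kilobases), averaged 419 ± 28.9 over the 4 libraries (SD), which placed it 95th among all genes. In the TPM table it averaged 301 ± 22.9 TPM over the 4 libraries and was 501st among all genes. Next in each table came Col18a1, which encodes the precursor of the angiogenesis inhibitor endostatin, at 267 ± 22.8 RPKM and 132 ± 14.1 TPM. Col6a1, the first chain of collagen VI, was in place 3, at 199 ± 13.9 RPKM and 125 ± 28.1 TPM. In the count table Col6a1 was followed by Col1a1 at 167 ± 13.7 RPKM, and the lowest Col6a1 library (186 RPKM) stood above the highest Col1a1 library (178 RPKM). Col4a1 and Col6a3 came next at 97.9 ± 4.79 and 96.2 ± 4.97 RPKM and did not differ beyond their spread. In the TPM table the ranges of Col18a1 (122 to 152 TPM) and Col6a1 (103 to 163 TPM) overlapped. At the other end, 24 of the 44 members averaged under 1 RPKM and 25 under 1 TPM.

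The order depends in part on the gene length used. The deposited length covers the whole gene model, which is 2.32 times the length of the transcript with the longest coding sequence for Col1a2, 2.11 times for Col6a2 and 1.76 times for Col3a1. Over transcript lengths Col3a1 and Col18a1 kept places 1 and 2 in each table, while Col6a2 moved from place 7 to 5 in the count table and from 5 to 3 in the TPM table.

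Fibrillar chains made up the largest class, with 45.0% and 45.2% of the summed collagen level in overexpression cells and 44.0% and 45.2% in WT cells. Collagen VI held 23.5% and 23.7% in overexpression cells and 24.1% and 23.3% in WT cells, so these 2 classes overlapped between the groups. Collagen IV held 10.03% and 10.04% in overexpression cells and 10.91% and 10.97% in WT cells, lower in both overexpression libraries. The multiplexins Col18a1 and Col15a1 held 18.4% and 18.1% in overexpression cells, against 17.6% and 17.3% in WT cells.

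Between the sorted fractions the shares lay apart. Fibrillar chains held 47.2% and 45.7% of the collagen level in Ly6d-high cells, against 50.5% and 50.5% in Ly6d-low cells. Of this, Col3a1 alone held 33.0% and 30.6% in Ly6d-high cells, against 37.1% and 36.4% in Ly6d-low cells. In TPM as deposited, the summed fibrillar level itself was not lower, at 412 and 499 TPM in Ly6d-high cells, against 389 and 407 TPM in Ly6d-low cells. This depends on the scaling: all genes tested had a median difference of 0.25 in log2(TPM + 1), and of 0.01 with TMM scaling. With TMM the difference of Col3a1 turned below 0, as given further down. Collagen VI held 25.4% and 27.2% in Ly6d-high cells, against 21.9% and 21.1% in Ly6d-low cells. Multiplexins held 14.1% and 14.0% in Ly6d-high cells and 16.0% and 16.4% in Ly6d-low cells. None of these 3 class shares overlapped between the fractions. Shares of 1 library sum to the whole, so a higher share of one class lowers the others. Over transcript lengths the collagen VI share was 24.5% and 26.8% in Ly6d-high cells, against 20.7% and 20.2% in Ly6d-low cells.

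**Figure D2:**
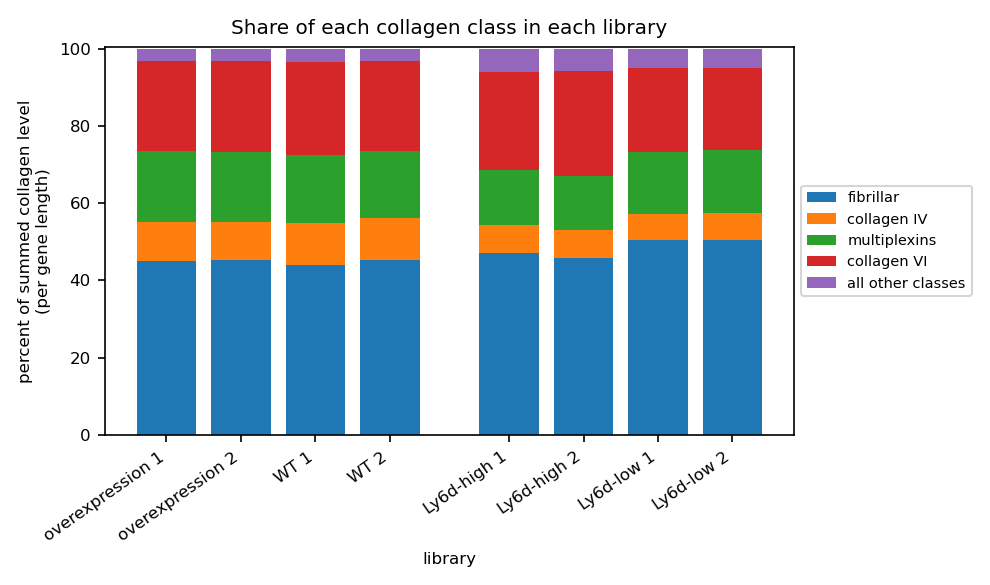
Share of each collagen class in the summed per-length level of all 44 collagens (y axis, percent) in each of the 8 libraries (x axis). The collagen VI block is taller in both Ly6d-high libraries (25.4% and 27.2%) than in both Ly6d-low libraries (21.9% and 21.1%).

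Between overexpression and WT cells few collagens passed the test, and they went both ways. Col1a2, Col12a1 and Col6a5 rose and Col27a1 fell, 4 of 35 tested (11.4%) at an adjusted p under 0.05 by edgeR's quasi-likelihood test, where 4.16% of the 15771 genes tested passed. The 3 that rose were 8.57% of those tested, where 2.32% of all genes rose, and the 1 that fell was 2.86%, where 1.84% fell. The median log2 fold change was -0.01 over the collagens, with 16 above 0 and 19 below, and 0.00 over all genes. This balance turned with the WT libraries: the median was -0.10 without WT 1, with 15 above 0 and 20 below, and 0.09 without WT 2, with 20 above and 15 below. An unadjusted p under 0.05 was reached by 14 of the 35 collagens, where 17.3% of all genes reached it. The 2 overexpression libraries both stood above both WT libraries for 13 collagens, where 26.3% of all genes did so, and both below for another 13, where 21.7% did. Read against those shares, 37.1% of the collagens lay in each direction and 9 overlapped. Without overexpression 1, 8 of 36 collagens passed, where 9.45% of genes did; Col7a1, Col9a3, Col11a2 and Col20a1 were the ones added, all lower in overexpression cells. Without WT 2 the log2 fold changes of Col1a1, Col3a1 and Col18a1 were 0.24, 0.21 and 0.23. Without WT 1 they were 0.082, 0.017 and 0.13.

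Among the fibrillar chains, 1 of 10 tested rose, 1 fell and 8 did not pass. Col1a2, the second chain of collagen I (ENSMUSG00000029661, chr6:4504814-4541544, plus strand), stood at 406.4 and 405.9 CPM in overexpression cells, against 293 and 325 CPM in WT cells. The overexpression libraries were both above both WT libraries, 1.32-fold on the means, with a log2 fold change of 0.38 ± 0.07 (SE, adjusted p = 0.0129). Its partner Col1a1, the first chain of collagen I, was at 1167 and 1162 CPM in overexpression cells and 977 and 1072 CPM in WT cells, a log2 fold change of 0.17 ± 0.07 that did not pass (adjusted p = 0.261). Per listed gene length the ratio of Col1a1 to Col1a2 was therefore 5.44 and 5.42 in overexpression cells, against 6.31 and 6.25 in WT cells. Over transcript lengths it was 2.59 and 2.58 in overexpression cells and 3.0 and 2.98 in WT cells. The main form of the collagen I trimer holds more Col1a1 than Col1a2 chains.

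Col27a1, a fibrillar chain best known from cartilage (ENSMUSG00000045672, chr4:63214004-63334991, plus strand), was at 18.5 and 16.0 CPM in overexpression cells, against 26.5 and 26.2 CPM in WT cells. Both overexpression libraries were lower, 0.655-fold on the means, with a log2 fold change of -0.63 ± 0.15 (adjusted p = 0.0415). It missed the threshold in DESeq2 (adjusted p = 0.0784) and without either WT library (adjusted p = 0.16 without WT 1 and 0.175 without WT 2), while the fold change stayed between -0.64 and -0.63. Col11a1, a chain of collagen XI, had the highest fold change of the class at 10.4 and 8.17 CPM in overexpression cells, against 6.41 and 6.80 CPM in WT cells (log2 fold change 0.47 ± 0.25, adjusted p = 0.359). Col3a1 was at 4315 and 4288 CPM in overexpression cells and 3702 and 4142 CPM in WT cells (log2 fold change 0.11 ± 0.07, adjusted p = 0.438). Of the collagen V chains, Col5a1 was at 634 and 630 CPM in overexpression cells and 605 and 655 CPM in WT cells, and its groups overlapped. Col5a2 and Col5a3 had log2 fold changes of 0.19 ± 0.09 and -0.27 ± 0.09, neither past the threshold. The rare chains Col24a1 and Col11a2 had log2 fold changes of 0.25 ± 0.62 and -0.13 ± 1.04, and the overexpression libraries of Col11a2 held 45 and 1 counts, on either side of both WT libraries (20 and 25).

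None of the 5 collagen IV chains tested passed in edgeR or in DESeq2, 0 had an unadjusted p under 0.05, and their log2 fold changes ran from -0.54 to 0.17. The main chains were close between the groups: Col4a1 was at 742 and 726 CPM in overexpression cells and 684 and 769 CPM in WT cells. Col4a2 was at 405.5 and 405.3 CPM in overexpression cells and 408 and 416 CPM in WT cells. Col4a5 had a log2 fold change of -0.13 ± 0.12. The lowest value of the class belonged to Col4a6, a chain of basement membranes in epithelia and smooth muscle, with 3.61 and 2.39 CPM in overexpression cells and 3.98 and 4.66 CPM in WT cells (log2 fold change -0.54 ± 0.39, adjusted p = 0.528). The highest belonged to Col4a4, a chain of the kidney's basement membrane, with 19 and 25 counts in overexpression cells and 14 and 21 counts in WT cells (log2 fold change 0.17 ± 0.71).

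The 2 multiplexins had fold changes of opposite sign, neither past the threshold in edgeR. Col18a1 stood at 2036 and 1981 CPM in overexpression cells, against 1696 and 1787 CPM in WT cells (log2 fold change 0.19 ± 0.06, adjusted p = 0.152 by edgeR), and it passed in DESeq2, in which 3.78% of genes passed. Col15a1, its close relative of vessel and muscle basement membranes, was at 95.8 and 83.2 CPM in overexpression cells and 98.5 and 106 CPM in WT cells (log2 fold change -0.21 ± 0.09, adjusted p = 0.267).

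Of the 5 collagen VI chains tested, 1 rose. Col6a5, one of the chains that resemble Col6a3 (ENSMUSG00000091345, chr9:105856078-105960643, minus strand), was at 12.1 and 10.7 CPM in overexpression cells, against 4.97 and 4.34 CPM in WT cells. Both overexpression libraries were far above the WT ones, 2.45-fold on the means, with a log2 fold change of 1.27 ± 0.24 (adjusted p = 0.0129). The counts behind it were 222 and 192 in overexpression cells and 90 and 67 in WT cells. The labels do not say how reads matching more than 1 of these similar neighbours were counted. Col6a6 next to it had 33 and 61 counts in overexpression cells and 26 and 34 counts in WT cells, which overlapped, and Col6a4 had 2 and 0 counts in overexpression cells and none in WT cells. Of the abundant chains none passed: Col6a2 had a log2 fold change of 0.11 ± 0.07, and Col6a1 was at 919 and 928 CPM in overexpression cells and 825 and 813 CPM in WT cells (log2 fold change 0.16 ± 0.06, adjusted p = 0.239). Col6a3, the longest of the abundant chains and lowest of the class here, was at 1150 and 1122 CPM in overexpression cells and 1097 and 1234 CPM in WT cells (log2 fold change -0.05 ± 0.08, adjusted p = 0.781).

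Of the 5 FACIT chains tested, 1 rose. Col12a1, which coats collagen I fibrils in tissues under tension (ENSMUSG00000032332, chr9:79598991-79718831, minus strand), was at 116 and 108 CPM in overexpression cells, against 71.8 and 79.5 CPM in WT cells. The groups were well apart, 1.48-fold on the means, with a log2 fold change of 0.55 ± 0.09 (adjusted p = 0.00482), and the call held in each alternative run, libraries left out included. At the other end, Col9a3, a chain of the cartilage collagen IX, was at 1.75 and 0.778 CPM in overexpression cells, against 4.03 and 4.53 CPM in WT cells, from 32 and 14 counts in overexpression cells and 73 and 70 in WT cells. Its log2 fold change of -1.77 ± 0.51 missed the threshold (adjusted p = 0.082). It passed in edgeR with no filter on low counts (adjusted p = 0.00708) and without overexpression 1 (-2.47, adjusted p = 0.00287), so the call depended on the filter and on 1 library. Of the other FACIT chains, Col16a1 and Col14a1 had log2 fold changes of -0.06 ± 0.08 and 0.07 ± 0.11. Col20a1 had 35 and 8 counts in overexpression cells, against 43 and 47 in WT cells (-1.21 ± 0.67, adjusted p = 0.396).

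**Figure D3:**
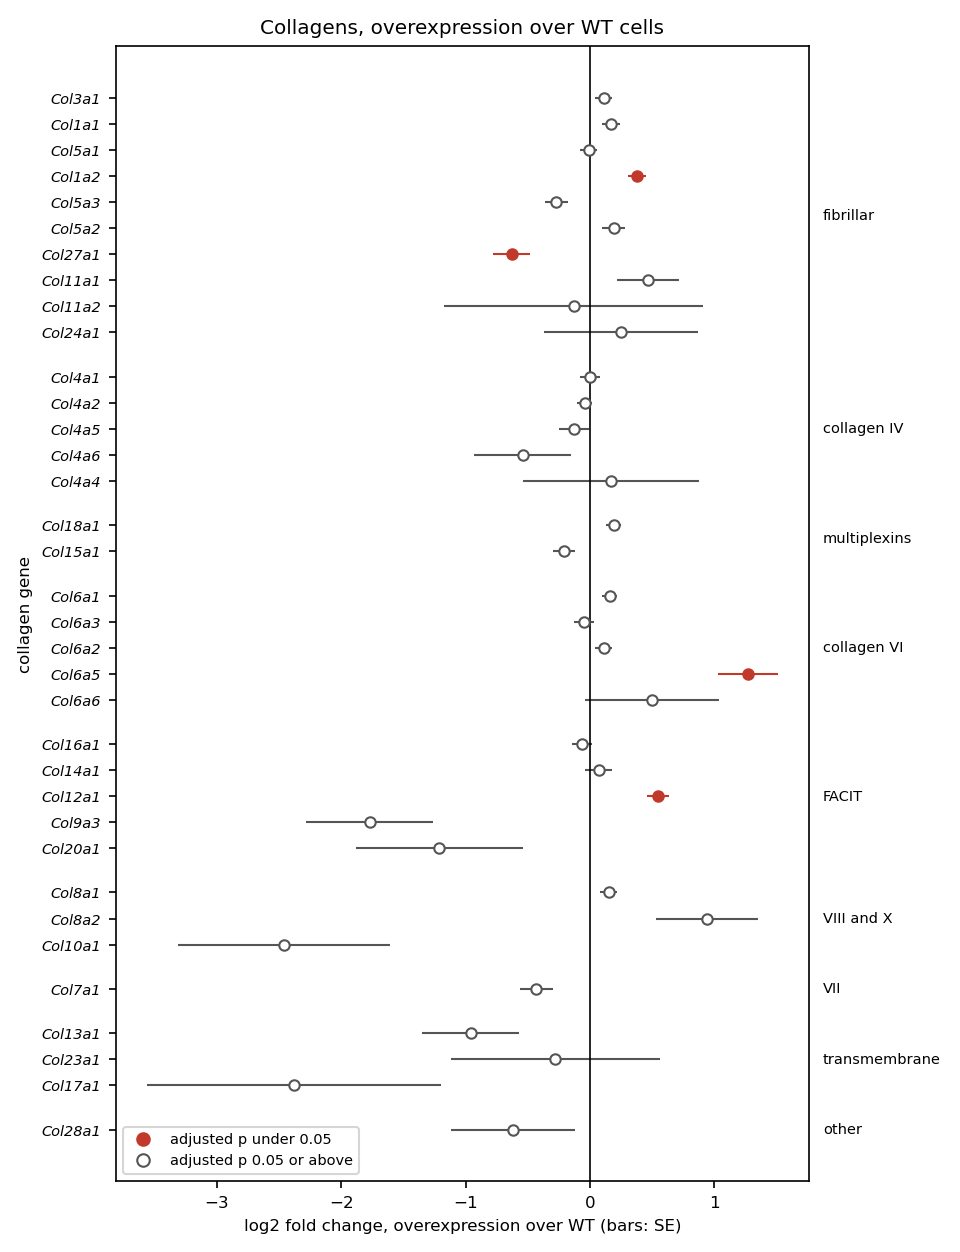
Log2 fold change of overexpression over WT cells (x axis, bars: SE) for the 35 collagens tested (y axis, by class). Filled red points mark the 4 collagens past the threshold: Col1a2, Col6a5 and Col12a1 to the right of 0 and Col27a1 to the left.

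The remaining classes held no collagen past the threshold with all libraries and the filter on low counts, in edgeR or in DESeq2, and 4 of their 8 tested chains had an unadjusted p under 0.05, where 17.3% of all genes did. Col10a1, the hypertrophic cartilage chain, had 5 and 4 counts in overexpression cells, against 22 and 24 in WT cells (log2 fold change -2.46 ± 0.85, adjusted p = 0.15). Col8a2, a chain of the collagen of vessel walls and the cornea, was at 3.61 and 5.0 CPM in overexpression cells, against 2.04 and 2.40 CPM in WT cells (log2 fold change 0.94 ± 0.41, adjusted p = 0.269), and its partner Col8a1 had a log2 fold change of 0.15 ± 0.07. Col7a1, which forms the anchoring fibrils under epithelia, was at 65.8 and 48.2 CPM in overexpression cells and 74.7 and 76.4 CPM in WT cells (log2 fold change -0.43 ± 0.13, adjusted p = 0.104). It passed in edgeR, lower in overexpression cells, with no filter on low counts (adjusted p = 0.00161), without WT 1 (0.0387) and without overexpression 1 (0.000398), and its adjusted p in the other alternatives was 0.103 to 0.229. The 3 transmembrane chains tested had log2 fold changes below 0, among them Col13a1 at -0.96 ± 0.39 (adjusted p = 0.228), which passed without overexpression 2 (adjusted p = 0.0352). The hemidesmosome chain Col17a1 had 6 and 0 counts in overexpression cells and 20 and 10 in WT cells (-2.38 ± 1.18, adjusted p = 0.333). Col23a1 had 21 and 6 counts in overexpression cells and 17 and 13 in WT cells, which overlapped. Col28a1, in the class of others, had 29 and 33 counts in overexpression cells and 54 and 34 in WT cells (log2 fold change -0.62 ± 0.50, adjusted p = 0.594).

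The sorted fractions were compared for each collagen, and they also differed in markers of other cell types, as given further down. Col9a3 and Col6a3 were higher in Ly6d-high cells, 2 of 19 collagens tested (10.5%) at an adjusted p under 0.05 by limma on log2(TPM + 1), where 9.81% of the 14625 genes tested passed and 8.64% were higher. The collagens' share is near that of all genes. An unadjusted p under 0.05 was reached by 8 of the 19, where 30.8% of all genes reached it. The differences are on the log2(TPM + 1) scale, which understates the change of low genes. All genes tested had a median difference of 0.25 on this scale. The collagens had a median of 0.43, which is 0.19 above that of all genes, with 18 above 0 and 1 below. The groups did not overlap, with Ly6d-high above, for 14 of the 19 collagens, where 54.4% of all genes lay so. None lay wholly below, where 10.4% of all genes did, and 5 overlapped. With the TPM rescaled by TMM the median of all genes was 0.01, that of the collagens was 0.20, and 15 were above 0 and 4 below. Without Ly6d-high 1, 11 of the 19 collagens passed, all higher, where 32.6% of genes did, and these included Col1a1, Col1a2, Col5a1, Col5a3, Col4a2, Col4a5, Col6a1, Col6a2 and Col8a1, while Col9a3 alone passed without Ly6d-high 2, without Ly6d-low 1 or without Ly6d-low 2.

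Col9a3 (ENSMUSG00000027570, chr2:180597790-180622189, plus strand) stood at 5.99 and 5.15 TPM in Ly6d-high cells, against 0.515 and 0.408 TPM in Ly6d-low cells. The fractions were far apart, 12.1-fold on the means, with a difference of 2.17 ± 0.21 on the log2(TPM + 1) scale (SE, adjusted p = 0.00112), and it passed in each alternative run. The recovered reads were 185 and 132 in Ly6d-high cells and 12 in each Ly6d-low library. Its partners in the collagen IX trimer were nearly absent: Col9a1 had no read in any library of either fraction, and Col9a2 had 8 and 9 reads in Ly6d-high cells, against 0 and 3 in Ly6d-low cells. Beside this, Col9a3 was the FACIT chain with the lowest fold change between overexpression and WT cells, as given above, where Ly6d was raised by the construct. Whether the 2 differences of Col9a3 differ from each other was not tested, since the tables hold different units.

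All 3 collagen VI chains tested lay at 0.48 or more, with a median difference of 0.69, which is 0.44 above that of all genes, and 1 of them passed. Col6a3 (ENSMUSG00000048126, chr1:90765923-90843971, minus strand) was at 27.6 and 39.7 TPM in Ly6d-high cells, against 17.2 and 18.3 TPM in Ly6d-low cells, 1.90-fold on the means (0.87 ± 0.20, adjusted p = 0.0402). The call was not firm: the adjusted p was 0.139 with no filter on low values, 0.0747 with TMM, 0.0879 without Ly6d-high 2, 0.226 without Ly6d-low 1 and 0.124 without Ly6d-low 2. Col6a2 was at 64.4 and 93.8 TPM in Ly6d-high cells, against 46.6 and 49.0 TPM in Ly6d-low cells (0.69 ± 0.19, adjusted p = 0.0682). Col6a1 was at 130 and 163 TPM in Ly6d-high cells, against 105 and 103 TPM in Ly6d-low cells (0.48 ± 0.15, adjusted p = 0.0847). The ratio of Col6a3 to Col6a1 over transcript lengths was 0.236 and 0.270 in Ly6d-high cells, against 0.182 and 0.197 in Ly6d-low cells. In the count table the same ratio was 0.508 and 0.491 in overexpression cells, against 0.539 and 0.616 in WT cells, so it was lower in the overexpression libraries. Col6a5 had 0 and 7 reads in Ly6d-high cells and 2 and 1 in Ly6d-low cells and was not tested.

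None of the 6 fibrillar chains tested passed by limma (2 had an unadjusted p under 0.05), and their differences ran from 0.10 to 0.72. The lowest was Col3a1, at 288 and 335 TPM in Ly6d-high cells and 286 and 294 TPM in Ly6d-low cells, whose difference of 0.10 ± 0.12 turned to -0.18 with TMM scaling. The highest was Col5a3, a chain of collagen V, at 5.88 and 7.51 TPM in Ly6d-high cells, against 3.57 and 3.71 TPM in Ly6d-low cells (0.72 ± 0.19, adjusted p = 0.0628). Col5a1 and Col5a2 had differences of 0.39 ± 0.17 and 0.21 ± 0.23. Col1a2 was at 8.16 and 10.8 TPM in Ly6d-high cells, against 5.59 and 6.08 TPM in Ly6d-low cells (0.60 ± 0.19, adjusted p = 0.0966), while Col1a1 was at 36.5 and 52.7 TPM in Ly6d-high cells and 34.4 and 37.1 TPM in Ly6d-low cells (0.29 ± 0.20, adjusted p = 0.344). The ratio of Col1a1 to Col1a2 over transcript lengths was therefore 2.13 and 2.34 in Ly6d-high cells, against 2.93 and 2.91 in Ly6d-low cells. It was thus lower in both comparisons in the libraries with more Ly6d, given as values without a test. Col27a1 was at 0.958 and 1.52 TPM in Ly6d-high cells and 0.826 and 0.683 TPM in Ly6d-low cells, and it did not pass the filter.

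The 3 collagen IV chains tested did not pass by limma (2 had an unadjusted p under 0.05), with differences of 0.24 to 0.79. Col4a5, which pairs with Col4a6 or with Col4a3 and Col4a4 in specialised basement membranes, was at 2.86 and 2.64 TPM in Ly6d-high cells, against 1.11 and 1.23 TPM in Ly6d-low cells (0.79 ± 0.21, adjusted p = 0.059). Both Ly6d-high libraries were well above the Ly6d-low ones, 2.35-fold on the means, and with edgeR on the recovered reads Col4a5 and Col5a3 passed as well, 4 of 28 collagens tested (14.3%), where 11.9% of genes passed. Its neighbour Col4a6 had 12 and 16 reads in Ly6d-high cells, against 2 and 1 in Ly6d-low cells, below the TPM filter. Col4a1 was at 37.1 and 45.6 TPM in Ly6d-high cells and 33.1 and 36.3 TPM in Ly6d-low cells (0.24 ± 0.16, adjusted p = 0.34), and its difference turned to -0.03 with TMM scaling. Col4a2 had a difference of 0.55 ± 0.19 (adjusted p = 0.109). The ratio of Col4a1 to Col4a2, per listed gene length, was 1.6 and 1.42 in Ly6d-high cells, against 1.84 and 1.96 in Ly6d-low cells. It was 1.62 and 1.59 in overexpression cells and 1.49 and 1.64 in WT cells, where the groups overlapped.

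Of the other chains, Col18a1 was at 122.3 and 152.0 TPM in Ly6d-high cells and 122.2 and 130.4 TPM in Ly6d-low cells, and its difference of 0.11 ± 0.15 turned to -0.17 with TMM scaling. Col14a1, a FACIT chain that binds fibrils, had the lowest difference of the 19, at 3.112 and 2.594 TPM in Ly6d-high cells and 2.997 and 3.116 TPM in Ly6d-low cells (-0.08 ± 0.20, adjusted p = 0.806). Col12a1 was at 2.48 and 2.53 TPM in Ly6d-high cells, against 1.782 and 1.598 TPM in Ly6d-low cells (0.38 ± 0.20, adjusted p = 0.244), and Col16a1 had a difference of 0.43 ± 0.19. Col8a1, the main chain of collagen VIII, was at 28.9 and 37.0 TPM in Ly6d-high cells, against 23.3 and 25.6 TPM in Ly6d-low cells (0.41 ± 0.17, adjusted p = 0.163). Col7a1 was at 2.52 and 3.35 TPM in Ly6d-high cells, against 1.72 and 2.09 TPM in Ly6d-low cells (0.43 ± 0.22, adjusted p = 0.223). No transmembrane collagen passed the filter.

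**Figure D4:**
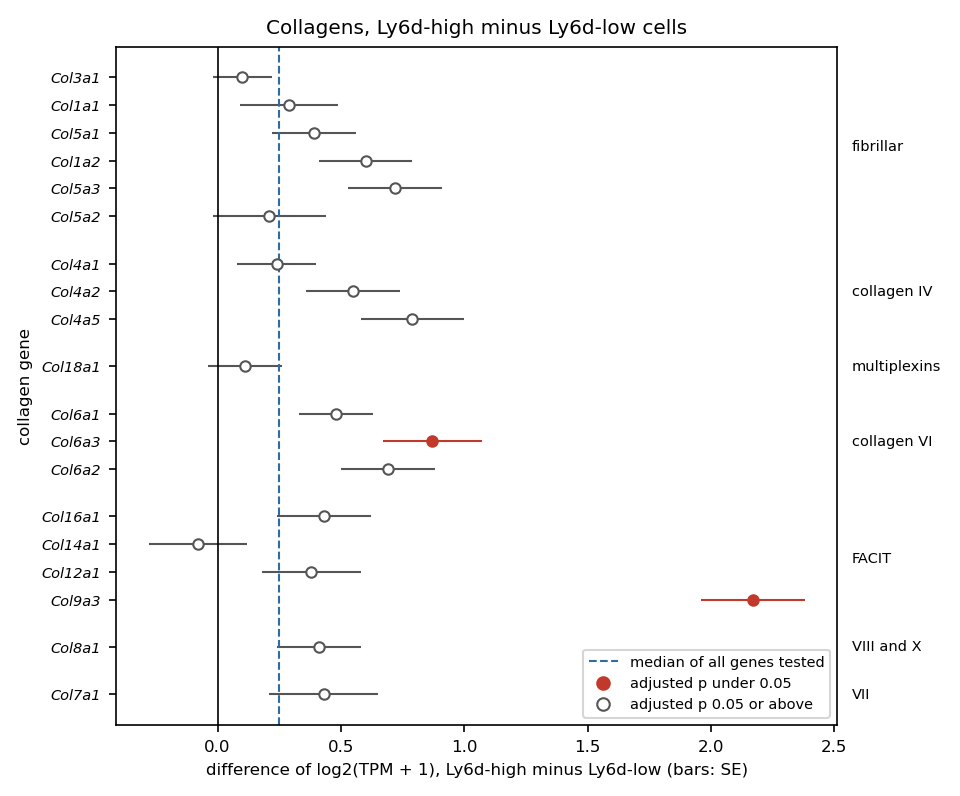
Difference of log2(TPM + 1), Ly6d-high minus Ly6d-low cells (x axis, bars: SE), for the 19 collagens tested (y axis, by class). The dashed line is the median of all genes tested (0.25), and filled red points mark Col9a3 at 2.17 and Col6a3 at 0.87.

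**Figure D5:**
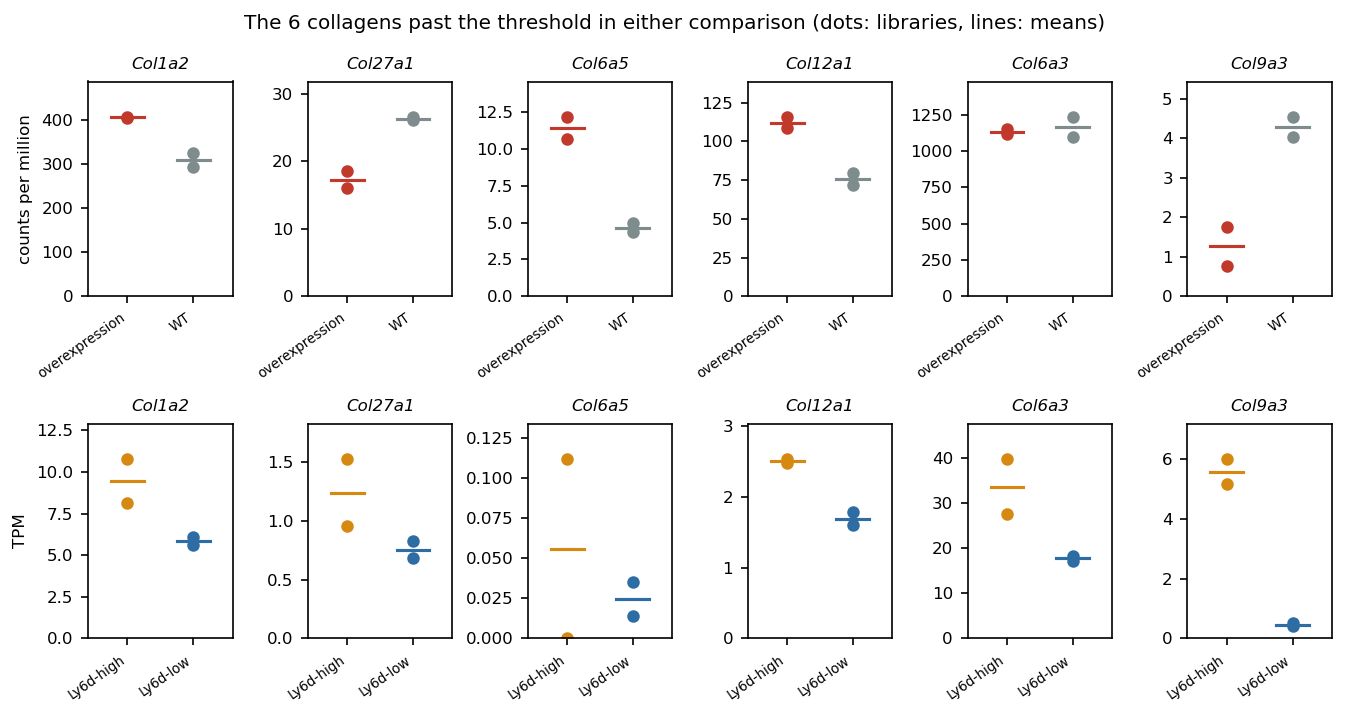
The 6 collagens past the threshold in either comparison, with 1 dot per library and a line at each group mean. The upper row gives CPM in overexpression and WT cells, and the lower row TPM in Ly6d-high and Ly6d-low cells, each axis starting at 0. Col9a3 is lower in overexpression than in WT cells and higher in Ly6d-high than in Ly6d-low cells, while the Col6a3 dots overlap in the upper row.

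The genes that make, bind and break down collagen were read from lists beside the collagens. Of 33 genes for collagen synthesis and cross-linking, none passed between overexpression and WT cells by edgeR (5 at an unadjusted p under 0.05), 1 passed in DESeq2 (Sparc), and their median log2 fold change was 0.05. Serpinh1, which encodes Hsp47, was at 538 and 542 CPM in overexpression cells and 569 and 541 CPM in WT cells. Between the sorted fractions, 1 of 28 rose by limma: Crtap, a partner of the prolyl 3-hydroxylase, was at 129 and 149 TPM in Ly6d-high cells, against 86.6 and 92.5 TPM in Ly6d-low cells (0.62 ± 0.13, adjusted p = 0.0322). In edgeR on recovered reads Crtap did not pass, and of 32 genes 1 was higher (Adamts2, a procollagen peptidase) and 1 lower (P4hb, a subunit of the prolyl 4-hydroxylase) in Ly6d-high cells. By limma the list's median difference over the 28 genes was 0.38, which is 0.13 above that of all genes.

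No collagen receptor passed in either comparison: 0 of 9 by edgeR between overexpression and WT cells and 0 of 5 by limma between the fractions, each with 1 gene at an unadjusted p under 0.05. DESeq2 called 0 of 9 and edgeR on recovered reads 2 of 6, Ddr2 higher and Itga2 lower in Ly6d-high cells. Of 8 genes for collagen breakdown, 1 rose in overexpression cells: Mmp8, the neutrophil collagenase, had 33 and 16 counts in overexpression cells and 0 in both WT libraries (adjusted p = 0.0277 by edgeR). Its mean CPM in overexpression cells was 7.48-fold a floor of 3 counts per WT library. The spread of the overexpression counts is not part of this value. Between the fractions 0 of 7 passed by limma and by edgeR on recovered reads, with 2 at an unadjusted p under 0.05 in limma.

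Markers of other cell types moved in the same libraries. Fibroblast markers summed to 562 and 552 CPM in overexpression cells, against 439 and 458 in WT cells, where 1 of 12 rose (Pdgfrb, a receptor of fibroblasts and pericytes, log2 fold change 0.45 ± 0.09, adjusted p = 0.0132) and the median was 0.38. Of the 12, Fap alone had a log2 fold change below 0 there (-0.39 ± 0.55). The fibroblast markers summed to 256 and 305 CPM in Ly6d-high cells, against 214 and 205 in Ly6d-low cells. By limma 1 of 11 rose (Pdpn, 0.94 ± 0.21, adjusted p = 0.0396), and 0 of 11 passed in edgeR on recovered reads. The median difference by limma was 0.35, which is 0.10 above that of all genes. Thy1, which was not tested between the fractions, lay the other way, with 3 and 1 reads in Ly6d-high cells, against 7 and 9 in Ly6d-low cells. The fibroblast sums thus lay on the same side as the collagen share of reads, and so did the macrophage sums given below. Of the collagens past the threshold in either comparison, Col1a2 and Col12a1 lay on that side in both. Between the fractions they did not pass (adjusted p = 0.0966 and 0.244 by limma), and 54.4% of all genes lay wholly above there. Col27a1 and Col9a3 were lower in overexpression cells. Col6a3 overlapped between overexpression and WT cells, and Col6a5 overlapped between the fractions. The part of fibroblast or macrophage RNA in the collagen differences was not tested.

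Endothelial markers summed to 146 and 174 CPM in overexpression cells, against 289 and 287 in WT cells. By edgeR 5 of 9 were lower (Pecam1, Kdr, Tie1, Plvap and Emcn), and DESeq2 called 4, without Emcn. Vwf lay the other way, at 12.1 and 18.2 CPM in overexpression cells, against 9.77 and 10.6 CPM in WT cells. Its log2 fold change was 0.55 ± 0.23 (adjusted p = 0.23 by edgeR). Between the fractions the endothelial markers summed to 83.2 and 98.1 in Ly6d-high cells and 66.9 and 69.4 in Ly6d-low cells. By limma 0 of 6 passed the threshold, 2 had an unadjusted p under 0.05, and edgeR on recovered reads called 0 of 9. Mural markers summed to 97.1 and 101.4 in overexpression cells and 115 and 117 in WT cells, with Rgs5 lower of 7 tested. In the fractions the mural markers summed to 258 and 265 in Ly6d-high cells, against 113 and 117 in Ly6d-low cells. Of 4 tested, Rgs5 and Mcam were higher. Rgs5 alone had 2504 and 2373 recovered reads in Ly6d-high cells, against 92 and 113 in Ly6d-low cells. Acta2, Des and Tagln also lay above in Ly6d-high cells, with Tagln at 0 in Ly6d-low 2, while Cspg4, Myh11 and Notch3 overlapped between the fractions.

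Macrophage markers summed to 227 and 235 CPM in overexpression cells, against 79.9 and 81.9 in WT cells (6 of 8 higher), and to 123 and 114 in Ly6d-high cells, against 54.0 and 52.4 in Ly6d-low cells (4 of 7 higher). Adgre1 was at 0 in Ly6d-low 2. Ptprc, a marker of all leukocytes, was at 10.7 and 10.3 CPM in overexpression cells, against 1.82 and 1.55 CPM in WT cells. Acinar markers summed to 1026 and 1114 in overexpression cells, against 13920 and 14130 in WT cells, with 5 of 5 lower. They summed to 3635 and 3385 in Ly6d-high cells, against 1519 and 1538 in Ly6d-low cells, with 4 of 5 higher. Acinar markers and Col9a3 thus lay on the same side in both comparisons, lower in overexpression cells and higher in Ly6d-high cells. The endothelial, mural and stellate marker sums lay on those sides too. The stellate and mural lists share Des, so their sums are not separate observations. Des had 102 and 103 recovered reads in Ly6d-high cells, against 39 and 67 in Ly6d-low cells. No other stellate marker had more than 10 reads in a library of the fractions. The part of any of these cell types in the Col9a3 values was not tested.

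Epithelial markers summed to 11490 and 12140 CPM in overexpression cells and 10880 and 10600 in WT cells, with 0 of 5 past the threshold by edgeR, 1 at an unadjusted p under 0.05, and 1 in DESeq2 (Krt8). They summed to 26210 and 23840 in Ly6d-high cells, against 37670 and 37820 in Ly6d-low cells, with the keratins Krt8, Krt18 and Krt19 lower of 5. Stellate cell markers summed to 5.14 and 6.17 in overexpression cells, 7.79 and 7.44 in WT cells, 5.32 and 6.15 in Ly6d-high cells and 2.72 and 3.68 in Ly6d-low cells. No stellate marker passed in edgeR, DESeq2 or limma (1 at an unadjusted p under 0.05 in limma), and Gfap was at 0 in 6 of the 8 libraries. Schwann cell markers summed to 2.29 to 6.28 over the 8 libraries, and Sox10 was at 0 in all but WT 1. The part of these cell types in the collagen values was not tested.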

How the data were processed

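RNA sequencing of sorted KPC1199 cells gave 2 tables with the same 54532 genes. Per the submitters' processing notes, fastp, HISAT2, featureCounts and DESeq2 were used, without versions, with the build mm9. The gene coordinates of all 44 collagens in the deposited tables are those of GENCODE vM21 on GRCm38, so coordinates are named GRCm38. One table holds raw counts per gene, deposited by the authors for WT and overexpression cells. For Ly6d-high and Ly6d-low cells the authors deposited TPM, based on the gene length in the same table. Multiplied by that length, 100% of the deposited TPM values above 0 scale to whole reads within 0.1 read, which gives the depths. Columns were assigned by name. The overexpression count columns have a library name found in the labels of overexpression tumours only, so their assignment to the sorted group is an inference, and their numbers are names only. The 2 remaining per-sample count columns fit no label and stayed out.

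The count test was the quasi-likelihood test of edgeR 4.0.16 (R 4.3.3) after filterByExpr and TMM. For TPM, log2(TPM + 1) entered limma 3.58.1 with a trend, over genes reaching 1 TPM in 2 libraries or more. P-values were adjusted by Benjamini-Hochberg over all genes tested, with a threshold of 0.05, and the scripts were tested on simulated data. DESeq2 1.42.0 was an alternative, beside other scalings, filters, pseudocounts and leaving out each library. CPM and RPKM were computed from the counts over each library's total, so they carry no TMM factor. Floors of 3 counts cover counting error only.

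Named library by library are collagens past the threshold in either comparison, the 3 with the highest mean level per length in each table, and the lowest and highest difference of each structural class. Some others are given as their chain partners or as counterparts in the other comparison, chosen after their values were seen. From the lists for collagen synthesis, receptors and breakdown, genes past the threshold are named, and cell type markers are given as sums and counts with some genes named. Members and gene lists were chosen with earlier results of these data known.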

Additional observations from a re-analysis of the deposited data

How the results depend on the processing

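Between overexpression and WT cells 4 collagens passed in edgeR, where 4.16% of all genes did, and 4 in DESeq2, where 3.78% did. With RLE factors 4 passed, and 6 with no filter on low counts. Leaving out 1 library gave 4 to 8. Col1a2, Col12a1 and Col6a5 passed in each of these 7 settings. Between Ly6d-high and Ly6d-low cells 2 passed, where 9.81% of all genes did, and 4 in edgeR on recovered reads, where 11.9% did. With a pseudocount of 0.1, 2 passed, with no filter on low values 1, and with TMM factors 1. A count with no share of all genes beside it is not read as a result about the collagens. Leaving out 1 library gave 1 to 11. Of 245 single-collagen values between overexpression and WT cells, 219 kept their direction and their side of the threshold, 12 newly passed, 3 no longer passed and 11 changed sign; of 171 between the fractions the numbers were 139, 18, 5 and 9. For the values that changed sign, the cause was not tested.

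Log2 fold changes that changed sign when 1 library was left out spanned -0.088 to 0.052 for Col5a1, -4.46 to 0.83 for Col11a2, -0.1 to 0.093 for Col4a1, -0.2 to 0.64 for Col4a4, -0.16 to 0.041 for Col6a3, -0.029 to 0.88 for Col6a6, -0.018 to 0.14 for Col14a1 and -1.42 to 0.34 for Col23a1. Between the fractions, Col3a1 changed to -0.18 with TMM and -0.20 on recovered reads, Col4a1 to -0.032 and -0.05, and Col18a1 to -0.17 and -0.18. Without 1 library the differences spanned -0.0082 to 0.21 for Col3a1, -0.046 to 0.27 for Col18a1 and -0.17 to 0.02 for Col14a1.

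No paired analysis was possible because the overexpression count columns carry no replicate number of the labels. Between the fractions, with the replicate number as a block, 9 of 19 collagens passed, where 28.6% of all genes did: Col6a3 and Col9a3, and also Col1a2, Col4a2, Col4a5, Col5a1, Col5a3, Col6a1 and Col6a2, all higher in Ly6d-high cells. The deviations of same-numbered libraries correlated at 0.0681 over 2 pairs. The labels do not say that a number marks a shared tumour or sort, so the samples were treated as sharing a number alone, which 2 pairs cannot settle. With 2 libraries a group, and some lone libraries assumed to vary like the other group when one was left out, chains with few reads, such as Col17a1 or Col23a1, have wide errors.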

Other observations

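The 9 collagens that were tested in neither comparison are given as reads. Col19a1, a FACIT chain, had no read in any of the 8 libraries, and Col2a1, the main fibrillar chain of cartilage, had 1 read in all, in Ly6d-low 2. A count of 0 still allows up to 3 reads per library, which is 0.146 to 0.199 CPM at these depths. Col6a4 had 3 reads over the 8 libraries and Col26a1 had 9, all of these in overexpression 2. Col9a1 had 16 reads, with 5 and 0 in overexpression cells, 8 and 3 in WT cells and none in either sorted fraction. Col22a1 had 18 reads, of which 4 and 8 were in Ly6d-high cells and none in Ly6d-low cells. Col9a2 had 26 reads and Col4a3 had 73. Col25a1, a transmembrane chain of neurons and muscle, had 32 reads, and 21 of them were in Ly6d-high 2.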
